A study of Homo sapiens with 3 samples.

Results

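The profile of A549 cells after knockdown of YAP was set against the profile of cells that received a control siRNA. A549 is an established human lung adenocarcinoma cell line. The series holds 3 arrays taken 48 h after Lipofectamine transfection: siNC (control siRNA), siTAZ (siRNA against TAZ) and siYAP (siRNA against YAP). No genotype change or further agent is named in the labels, and the siRNA sequences are not analysed here. Each difference given is the siYAP array minus the siNC array on the log2 scale, where 1 unit is 2-fold, and the siTAZ array is given beside it. All 53617 probe sets of the array were searched, of which 16098 carried 1 gene symbol. They stood for 14884 genes, each represented by its brightest probe set. A total of 10768 genes (9542 of them protein coding) had a mean level over the 3 arrays at or above 4.27, the median of all probe sets, and were kept as the brighter genes. With 1 array for each siRNA there is no replicate. No value carries an error, no test was possible, and the knockdown cannot be told apart from anything else that differed between these dishes.

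YAP, encoded by YAP1, and TAZ, encoded by WWTR1, are co-activators without a DNA-binding domain of their own. The Hippo kinases MST and LATS phosphorylate them and hold them in the cytoplasm, and when this signal is low they enter the nucleus and bind TEAD transcription factors. Their known target genes include secreted matricellular proteins, growth factors, receptor kinases and regulators of the Hippo pathway itself, and AP-1 factors often occupy the same enhancers as TEAD.

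Most genes lay close to their control level. The siYAP minus siNC difference had a median of 0 and an SD of 0.144 over the kept genes, and 76.2% of them lay within 0.1 of 0. The central 98% ran from -0.45 to 0.46. Values were identical in both arrays for 5521 genes (51.3%), lower in the siYAP array for 2336 (21.7%) and higher for 2911 (27.0%). Many of these identical values were not particular to a gene: 3157 kept genes had the same values on all 3 arrays as at least 1 other gene, and 3153 of these were identical between siNC and siYAP. Among the 7611 genes with values of their own, 2368 (31.1%) were identical. An identical value is therefore no measure of a stable transcript, and how it came about was not tested. None of the 97 genes past 1.5-fold shared its values in this way. The share of identical values also moved with the level, from 70.4% in the dimmest 25% of genes to 26.7% in the brightest 25%. In that brightest group 32.7% of genes were lower and 40.6% higher.

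Against this narrow spread, 13 genes (0.121% of those kept) lay 2-fold or more below the control and 8 (0.0743%) lay 2-fold or more above it. At 1.5-fold the counts were 41 lower (0.381%) and 56 higher (0.520%). In 6 of the 56 (MIR3127, MIR4470, MIR521-1, GRHL3, HMGN5 and C15orf61) the siNC level, and in 1 of the 41 (CXCL8) the siYAP level, lay under the filter, where a fold is uncertain. The counts rest on the single siNC array. With the mean of siNC and siTAZ as the reference, which is itself partly a knockdown, the 2-fold counts were 1 and 0 and the 1.5-fold counts 12 and 19. The difference from siNC and the one from siTAZ have the siYAP array in common, so the 3 levels of each gene are given side by side.

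**Figure D1:**
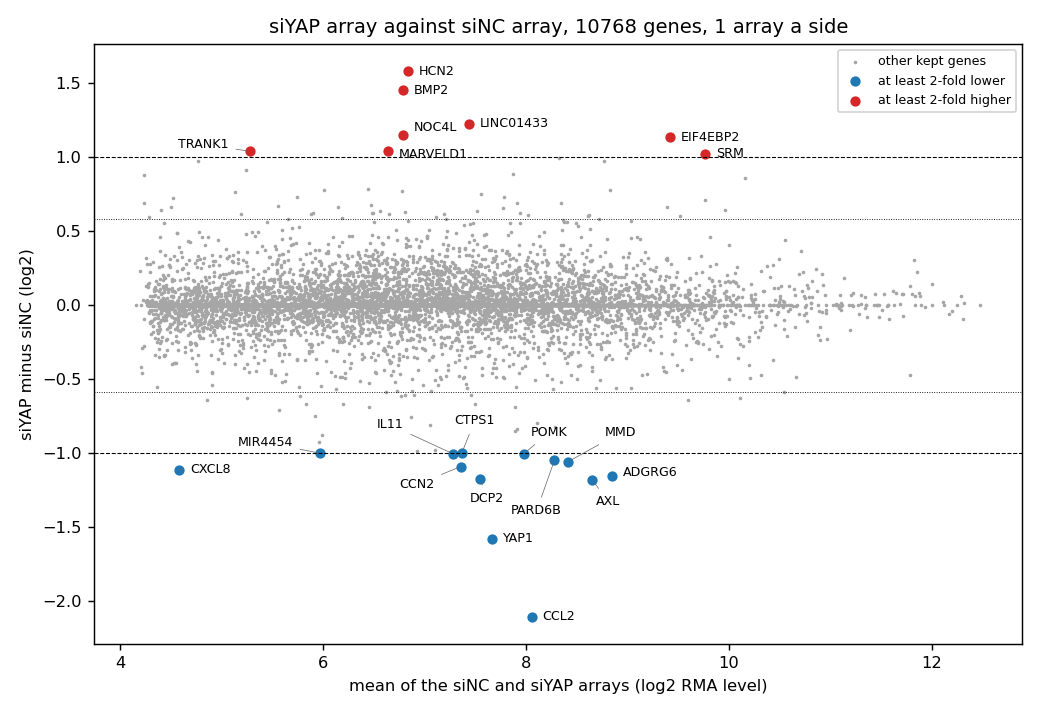
Difference between the siYAP and siNC arrays (vertical, log2) against their mean level (horizontal, log2 RMA level) for 10768 genes, 1 point a gene. Dashed lines mark 2-fold and dotted lines 1.5-fold. The 13 blue genes lie at least 2-fold lower, led by CCL2 and YAP1, and the 8 red genes at least 2-fold higher, led by HCN2 and BMP2.

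The siRNA target came first as a check of the label. YAP1 read 8.45 on the siNC array, 8.24 on the siTAZ array and 6.87 on the siYAP array. It was low in the siYAP array alone, at 33.5% of the control. WWTR1 read 6.50 in both the siNC and siYAP arrays and 5.81 in the siTAZ array, and its identical value in siYAP is no measure of a stable transcript. The DNA-binding partners were near the control. TEAD1 was 9.15 in siNC and 8.96 in siYAP, TEAD4 was 6.96 and 6.89, TEAD3 was 5.61 and 5.64, and TEAD2 was identical at 6.50. VGLL3, a vestigial-like cofactor that competes for TEAD, was higher (7.08 against 7.47).

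The lowest gene on the whole list was CCL2, the chemokine that draws monocytes. It read 9.11 on the siNC array, 6.19 on siTAZ and 7.001 on siYAP, a 4.31-fold lower level than the control. Both knockdown arrays were far below siNC, and siTAZ was the lowest. CXCL8, which encodes the neutrophil chemokine interleukin-8, read 5.13 in siNC, 4.56 in siTAZ and 4.02 in siYAP. The siYAP array held the lowest of the 3 values, but it lies under the 4.27 filter, where signal and background are hard to separate, so the 2.16-fold difference is uncertain. Of 9 kept chemokines, CCL2 and CXCL8 included, 3 were lower (33.3%) and 1 higher (11.1%), against 21.7% and 27.0% of all kept genes. The other 5 were identical, and the median was 0. CXCL5, very bright at 12.36, was 12.26 after YAP knockdown. CCL5, CXCL2, CXCL3 and CXCL12 had identical values, which are no measure of a stable transcript. CXCL16, a membrane-bound chemokine, was higher (7.57 against 7.95).

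IL11, a cytokine that signals through gp130, read 7.78 in siNC, 6.67 in siTAZ and 6.78 in siYAP. The knockdown arrays lay close together and about 1 unit below the control. Across 16 kept cytokines and NF-kB targets, 8 were lower, 5 higher and 3 identical, with a median of -0.048. Below IL11 came the stress-response gene IER3 (9.58 against 9.14), the adhesion molecule ICAM1 (6.11 against 5.75) and the macrophage growth factor CSF1 (6.57 against 6.23). At the other end stood the alarmin IL33 at 5.34 in siNC and 5.85 in siYAP. On the receiving side, the median of 26 cytokine receptors, JAKs, STATs and SOCS genes was 0, with JAK1 at -0.41 and IL6R at -0.37.

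CXCL8 and IL11 are shown by their promoters because both hold a motif of AP-1 in the 250 bases before the transcription start. The sequences are from RefSeq on GRCh38.p14, printed 5′ to 3′ on the gene's strand, with the AP-1 motif TGANTCA in capitals. The CXCL8 stretch is chr4:73740319-73740568 (plus strand), where the motif starts 137 bases before the start site. The IL11 stretch is chr19:55370464-55370713 (minus strand), where it starts 96 bases before.
CXCL8: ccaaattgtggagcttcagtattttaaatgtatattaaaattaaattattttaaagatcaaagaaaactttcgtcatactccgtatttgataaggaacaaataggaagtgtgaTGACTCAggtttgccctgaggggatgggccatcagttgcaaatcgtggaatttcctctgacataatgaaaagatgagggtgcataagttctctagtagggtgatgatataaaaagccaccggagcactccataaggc
IL11: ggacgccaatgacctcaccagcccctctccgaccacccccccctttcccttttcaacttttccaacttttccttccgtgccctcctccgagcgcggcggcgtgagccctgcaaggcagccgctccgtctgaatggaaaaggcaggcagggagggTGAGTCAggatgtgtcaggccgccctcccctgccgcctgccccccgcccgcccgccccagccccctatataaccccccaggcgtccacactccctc
Neither stretch held GGAATG, the TEAD core. The AP-1 motif was searched on both strands and was present in 4.87% of 11746 promoters of the kept genes. A match shows letters in a window and not a bound site.

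The textbook targets of YAP and TAZ came next. CCN2, a secreted matricellular protein, read 7.90 in siNC, 6.35 in siTAZ and 6.81 in siYAP, 2.13-fold lower after YAP knockdown. AXL, a receptor tyrosine kinase, read 9.24, 7.78 and 8.06 in the same order, 2.27-fold lower. In both genes the siTAZ array was the lowest of the 3. ANKRD1, a nuclear ankyrin-repeat protein, read 6.41 in siNC, 5.84 in siYAP and 4.18 in siTAZ, the last of which lies under the 4.27 filter, so the gap between the knockdowns is uncertain. Its siYAP level was 0.57 below the control, short of 1.5-fold. Of the 24 genes of the target signature 13 had a named probe set, and all 13 were kept. CCN1, a further known target, had no named probe set. Of the 13, 8 were lower (61.5%, against 21.7% of all kept genes), 2 higher and 3 identical, with a median of -0.36. Of genes with values of their own, 80.0% of 10 signature genes were lower, against 30.6% of all. DOCK5, a guanine exchange factor for Rac, was at -0.47, CRIM1, a transmembrane antagonist of bone morphogenetic proteins, at -0.44, AMOTL2 at -0.38 and AJUBA at -0.35. The members against this direction were CCDC80 (6.91 against 7.20) and FOXF2 (6.33 against 6.55). The signature median was -0.043 with the mean of siNC and siTAZ as reference.

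CCN2, ANKRD1 and a further target, THBS1, are shown because the TEAD core GGAATG stands near their start sites, in capitals in the 250 bases before it. The stretches are chr6:131951373-131951622 (minus strand), chr10:90921088-90921337 (minus strand) and chr15:39580829-39581078 (plus strand) of GRCh38.p14, from RefSeq.
CCN2: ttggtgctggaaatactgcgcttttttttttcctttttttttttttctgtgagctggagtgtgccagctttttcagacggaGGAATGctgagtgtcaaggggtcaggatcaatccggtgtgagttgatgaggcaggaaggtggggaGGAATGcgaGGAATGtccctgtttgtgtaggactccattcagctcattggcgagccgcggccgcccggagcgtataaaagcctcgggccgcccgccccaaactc
ANKRD1: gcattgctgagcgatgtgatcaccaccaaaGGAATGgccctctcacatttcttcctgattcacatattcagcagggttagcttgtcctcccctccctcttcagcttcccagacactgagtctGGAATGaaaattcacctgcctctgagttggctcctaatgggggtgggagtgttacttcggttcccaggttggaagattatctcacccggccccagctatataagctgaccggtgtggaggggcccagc
THBS1: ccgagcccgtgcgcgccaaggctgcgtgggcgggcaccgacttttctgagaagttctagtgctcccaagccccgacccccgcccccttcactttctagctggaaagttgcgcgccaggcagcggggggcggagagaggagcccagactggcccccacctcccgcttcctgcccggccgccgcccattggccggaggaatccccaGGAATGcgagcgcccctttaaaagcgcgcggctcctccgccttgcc
CCN2 held 3 copies, which began 169, 104 and 95 bases before the start. ANKRD1 held 2, at 220 and 128 bases, and THBS1 held 1, at 46 bases. GGAATG was searched on both strands and was present in 10.1% of the promoters of kept genes, and the capitals mark this motif alone. The ANKRD1 stretch also held a match to TGANTCA, which began 195 bases before the start and did not overlap GGAATG, and those of CCN2 and THBS1 held none. GGAATG also stood in a promoter of YAP1, CTPS1 and AXL (CTPS1 and AXL each in 1 of 2), which were at least 2-fold lower. The promoters of ADGRG6, DCP2 and MMD, also at least 2-fold lower, held no match. A comparison of motif shares between the gene sets is void, since promoters were matched for 77.2% of the kept genes and for 69.2% of the 13 lower ones, under the 80% needed.

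A second list of 18 kept YAP/TAZ-TEAD targets had 12 lower (66.7%, against 21.7% of all kept genes), 5 higher and 1 identical, with a median of -0.11. THBS1, which encodes thrombospondin-1, was 7.20 in siNC, 6.50 in siTAZ and 6.59 in siYAP. FOSL1, the AP-1 subunit FRA1, was 7.11, 6.63 and 6.51, and both genes were 1.52-fold lower after YAP knockdown. CDK6, a kinase of the G1 phase, was at -0.49, the peptide hormone gene EDN1 at -0.36 and the growth factor gene FGF2 at -0.26. ZYX, a focal adhesion protein, stood at the other end with 6.55 in siNC and 7.12 in both knockdown arrays. Genes that act above YAP in the pathway differed by small amounts. Of 23 kept Hippo regulators 14 were lower (60.9%), 4 higher and 5 identical, with a median of -0.033. They ran from AMOTL2 and AJUBA through FRMD6 (-0.26), WWC2 (-0.23) and WWC1 (-0.22) to TAOK3 (0.19). NF2, the tumour suppressor merlin, was at 0.07. The 2 most negative of these regulators are also on the target signature. Of genes with values of their own, 30.6% of all were lower, against 66.7% of 18 targets and 73.7% of 19 regulators. The brightest 25% of genes, where 32.7% of all were lower, held 8 of the 18 targets and 7 of the 23 regulators. The part of brightness was not tested.

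Receptors and their ligands follow. ADGRG6, an adhesion G protein-coupled receptor known for its part in Schwann cell myelination, read 9.42 in siNC, 8.48 in siTAZ and 8.27 in siYAP, 2.22-fold lower. Among the 12 kept adhesion receptors it was alone past 1.5-fold, and 7 of them were identical. F2RL2, a protease-activated receptor, lay just under 2-fold, at 1.98-fold lower (7.42, 6.22 and 6.43), and OXTR, the oxytocin receptor, was 1.59-fold lower (6.53, 5.55 and 5.86). F2R, the thrombin receptor, was at -0.35. Receptor tyrosine kinases had 9 lower (37.5%, against 21.7% of all kept genes), 3 higher (12.5%, against 27.0%) and 12 identical of 24. Beside AXL these were ROR1, a Wnt5a receptor (7.83 in siNC, 6.97 in siTAZ and 7.16 in siYAP), MERTK of the AXL family (-0.39), MET (-0.26) and EPHA2 (-0.21). Of the ligands, EREG, an activator of EGFR, read 8.55 in both siNC and siTAZ and 7.98 in siYAP. The siYAP value was the lowest, but the identical value in the other arrays is no measure of stability. NRG1 was at -0.33 and HBEGF at -0.32.

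PARD6B, a scaffold of the apical polarity complex, read 8.80 in siNC, 7.74 in siTAZ and 7.76 in siYAP, 2.07-fold lower. Other polarity genes were nearer the control. PARD3 was at -0.03, LIN7C at -0.31 and LLGL1, of the opposing basolateral complex, at 0.34. Junction genes had 6 lower (27.3%, against 21.7% of all kept genes), 2 higher (9.09%, against 27.0%) and 14 identical of 22. The tight junction gene CLDN1 was at -0.51 and the desmosomal cadherin DSC2 at -0.41. Actin, myosin and actin-binding genes had 6 lower (20.7%, against 21.7% of all kept genes), 11 higher (37.9%, against 27.0%) and 12 identical of 29. Of the 29, 14 were in the brightest group of genes, where 40.6% of all genes were higher. The part of brightness in this count was not tested. Among proteases and their inhibitors, TFPI2, a Kunitz-type inhibitor, read 10.84 in siNC, 9.62 in siTAZ and 10.25 in siYAP. Its siYAP level was 1.51-fold below siNC, and against the mean of siNC and siTAZ its difference was 0.022. The membrane protease ADAM9 was at -0.49.

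The remaining protein-coding genes past 2-fold on the low side act in RNA decay, nucleotide synthesis and membranes. DCP2, the enzyme that removes the cap of mRNAs, read 8.14 in siNC, 7.51 in siTAZ and 6.96 in siYAP, with siYAP the lowest, 2.26-fold below the control. Of 29 kept genes of RNA decay, DCP2 included, 15 were higher (51.7%, against 27.0% of all kept genes), 5 lower and 9 identical, with a median of 0.0061. The highest were the exosome subunits EXOSC5 (0.23) and EXOSC3 (0.19), the decapping cofactor DCP1B (0.19) and EXOSC6 (0.18), all short of 1.5-fold, and the exonuclease XRN1 was at -0.11. Of the 29, 15 were among the brightest 25% of genes, where 40.6% of all genes were higher, and the part of brightness in this count was not tested. CTPS1, which makes CTP for nucleic acid and phospholipid synthesis, read 7.87, 7.62 and 6.86 in siNC, siTAZ and siYAP. Like YAP1, it was low in the siYAP array alone. MMD, a membrane protein of the PAQR family, read 8.94, 7.92 and 7.89. The other 7 kept PAQR genes ran from 0 to 0.07, but 5 of them had identical values, which are no measure of a stable transcript. POMK, a kinase that modifies the glycan of dystroglycan, read 8.48, 7.53 and 7.48, and both knockdown arrays were about equally low.

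**Figure D2:**
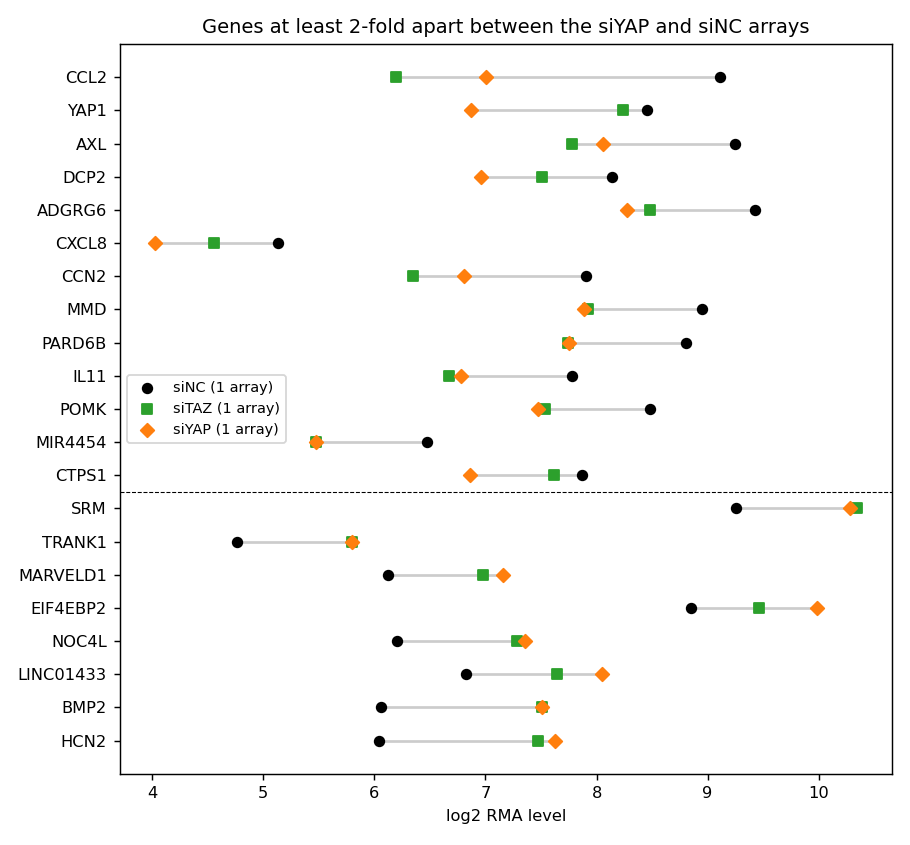
Level of the 21 genes at least 2-fold apart (horizontal, log2 RMA level) on the siNC, siTAZ and siYAP arrays, 1 array each, with the lower genes above the dashed line. In YAP1 and CTPS1 the siTAZ point lies near siNC, and in CCL2, AXL and CCN2 the siTAZ point lies beyond siYAP.

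The threshold cuts through a continuous series of values. PARD6B, IL11 (2.01-fold), POMK (2.01-fold), MIR4454 (2.0-fold) and CTPS1 (2.0-fold) lay just inside 2-fold on the low side. F2RL2, SCML2, a Polycomb-group protein (1.97-fold), the F-box gene FBXW10 (1.90-fold), the esterase gene AADAC (1.84-fold) and GPAT3, an enzyme of triglyceride synthesis (1.81-fold), lay just outside. Between there and 1.5-fold were GXYLT1, which adds xylose to Notch receptors (8.33 in siNC and 7.50 in siYAP), the phosphatase gene UBASH3B (8.69 and 7.87) and the transcription factor ETS1 (6.30 and 5.54). XPR1, the phosphate exporter, read 9.92 in siNC, 10.03 in siTAZ and 9.28 in siYAP, so it too was low in the siYAP array alone. CEMIP2, a cell-surface hyaluronidase, was bright throughout (10.42 and 9.79). Immediate-early factors had 10 lower (40.0%, against 21.7% of all kept genes), 6 higher (24.0%, against 27.0%) and 9 identical of 25. Below ETS1 and FOSL1 came KLF2 (-0.54) and JUN (-0.34), while JUND was 6.79 in siNC and 7.26 in siYAP.

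On the high side HCN2 came first. It encodes a pacemaker channel opened by hyperpolarisation and read 6.04 in siNC, 7.47 in siTAZ and 7.63 in siYAP, 2.99-fold higher. HCN4 and HCN3 had values identical to the control, which are no measure of a stable transcript. BMP2, a ligand of the bone morphogenetic protein pathway, read 6.06, 7.50 and 7.51 in the same order, 2.74-fold higher. In both genes siNC stood apart from 2 knockdown arrays that were nearly equal. Of the 32 kept pathway members, BMP2 included, 10 were lower (31.2%) and 5 higher (15.6%), against 21.7% and 27.0% of all kept genes. The other 17 were identical. SMAD3 was at -0.33, BMP6 at 0.12 and GDF15, a stress-induced family member, at 0.25. In the Wnt pathway WLS, which carries Wnt proteins to the cell surface, was 1.72-fold higher (5.62 in siNC, 6.57 in siTAZ and 6.40 in siYAP). The receptor genes FZD1 and LGR4 stood at 0.45 and -0.47.

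Among the other high genes are some of translation and of polyamine synthesis. EIF4EBP2, which binds the cap-binding factor eIF4E and blocks cap-dependent translation, read 8.85 in siNC, 9.47 in siTAZ and 9.99 in siYAP, with siYAP the highest. Its paralogue EIF4EBP1 was at 0.20 and EIF4E itself at -0.10. NOC4L, a nucleolar factor of small-subunit assembly, read 6.20, 7.28 and 7.36 in siNC, siTAZ and siYAP, 2.23-fold higher. SRM, the spermidine synthase, read 9.25, 10.35 and 10.28, 2.03-fold higher. Other polyamine genes were mixed, with SMOX, which oxidises spermine, at 0.26, the first enzyme of the pathway, ODC1, at -0.22 and the transporter gene ATP13A3 at -0.45. The list gave 6 lower (27.3%, against 21.7% of all kept genes), 8 higher (36.4%, against 27.0%) and 8 identical of 22. MARVELD1, a membrane protein with a MARVEL domain, read 6.12, 6.98 and 7.16, 2.06-fold higher. Of the 20 kept genes of its list, MARVELD3 was next at 0.44 and 11 were identical. TRANK1 read 4.76 in siNC and 5.80 in both knockdown arrays.

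Just inside 2-fold on this side lay NOC4L, EIF4EBP2, MARVELD1, TRANK1 and SRM, and just outside lay TRIM31 (1.99-fold), KRTAP10-5 (1.97-fold), NFIC (1.97-fold), PRB2 (1.88-fold) and MAPK4 (1.85-fold). KRTAP10-5 started from 4.27, and the fold of so dim a gene is uncertain. TRIM31, a ubiquitin ligase, read 7.83 in siNC, 8.37 in siTAZ and 8.83 in siYAP. TRIM68 followed at 0.59 and TRIM29 at 0.58. The 49 kept TRIM genes had 15 higher (30.6%, against 27.0% of all kept genes), 5 lower (10.2%, against 21.7%) and 29 identical. Further down, PTGES, which makes prostaglandin E2, read 7.56 in siNC, 7.30 in siTAZ and 8.25 in siYAP. RGCC, a cell cycle regulator, read 6.05, 6.17 and 6.83, and CEACAM5, a carcinoembryonic antigen, 9.41, 9.68 and 10.12. In these 3 genes the siYAP array was the highest and siTAZ lay nearer siNC.

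Of 80 gene lists, 74 had at least 3 kept members, and most of their medians ran close to the median of 0 over all kept genes. The furthest from it were the target signature (-0.36), the respiratory chain (0.11) and the second list of YAP/TAZ-TEAD targets (-0.11). The direction of members differed more than the medians did. On the low side, the NRF2 targets, which protect against oxidants, had 10 lower (58.8%, against 21.7% of all kept genes), 5 higher and 2 identical of 17, with SRXN1 at -0.25 and GSR at -0.20, and GSTO1 at 0.52. A549 cells are known for a constitutively active NRF2. The deubiquitinases of the USP family had 18 lower (47.4%), 6 higher and 14 identical of 38, from USP24 (-0.29) to USP39 (0.21). Glycolysis and hypoxia genes had 10 lower (47.6%), 4 higher and 7 identical of 21, and none differed by more than 0.17. None of these 3 lists had a member past 1.5-fold. Of genes with values of their own, 30.6% of all were lower, against 62.5% of 16 NRF2 targets, 54.5% of 33 USP genes and 55.6% of 18 glycolysis and hypoxia genes. The brightest 25% of genes, where 32.7% of all were lower, held 10 of 17, 16 of 38 and 11 of 21 of these lists, and the part of brightness was not tested.

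**Figure D3:**
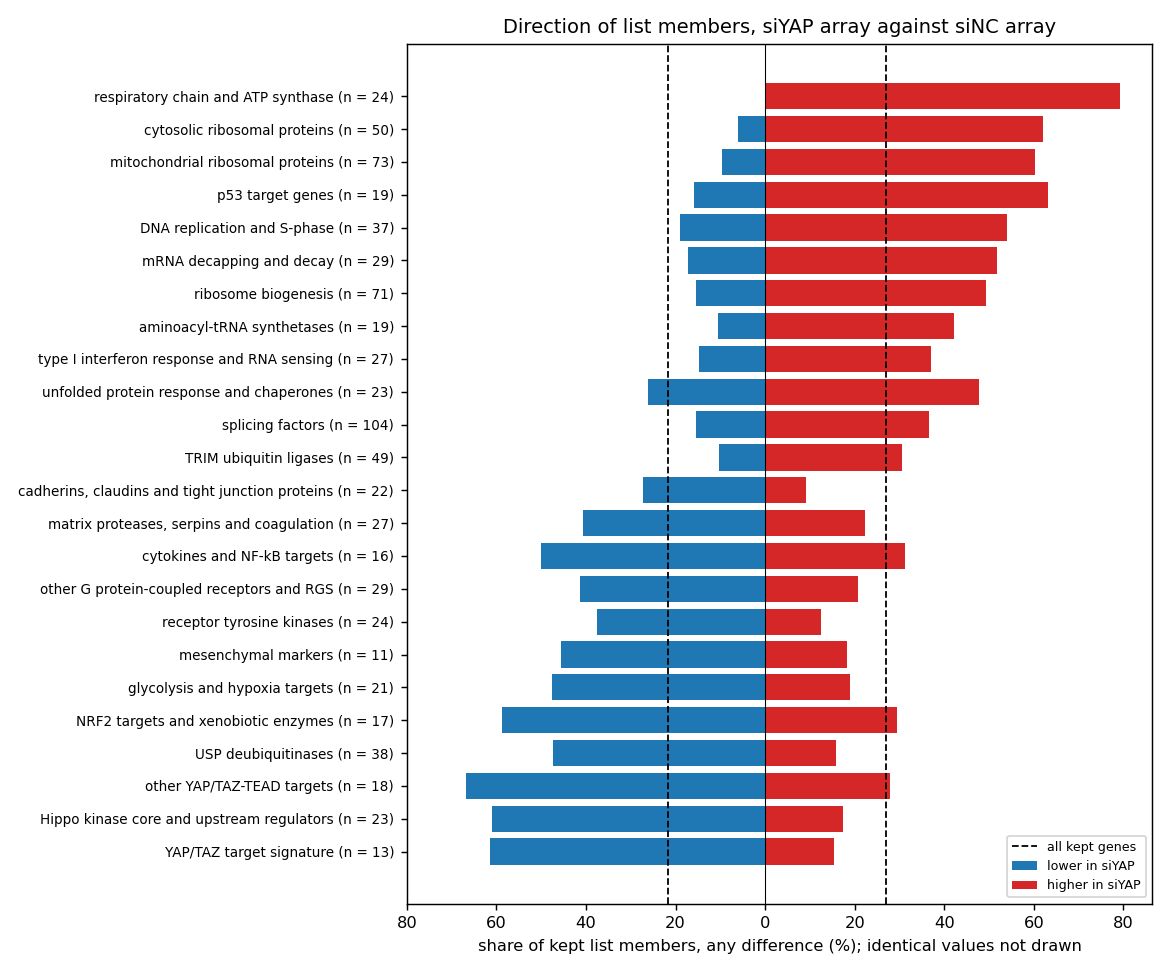
Share of kept members lower (blue, leftwards) and higher (red, rightwards) in the siYAP array than in siNC, in percent, for the 12 lists of at least 10 genes that lean furthest each way among the lists reported. Dashed lines give all kept genes, 21.7% lower and 27.0% higher. The respiratory chain has no lower member, and the target signature has 61.5% lower.

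The high side was led by genes of mitochondria and ribosomes, each by a small amount. Of 24 kept subunits and factors of the respiratory chain and ATP synthase, 19 were higher (79.2%, against 27.0% of all kept genes), none was lower and 5 were identical. The median was 0.11 and the largest difference 0.26. NDUFAF8, a factor for assembly of complex I, read 8.63 in siNC, 8.62 in siTAZ and 8.89 in siYAP, and CYC1, cytochrome c1, read 9.15 in siNC and 9.39 in both knockdown arrays. COX8A and COX5A, subunits of cytochrome c oxidase, were at 0.22 and 0.21. Mitochondrial ribosomal proteins had 44 higher (60.3%), 7 lower and 22 identical of 73, with a median of 0.028, from MRPL45 (-0.22) to MRPL2 (0.32) and MRPL35 (0.31). Cytosolic ribosomal proteins had 31 higher (62.0%), 3 lower and 16 identical of 50, with a median of 0.020. RPL36 was past 1.5-fold (7.41 in siNC, 7.99 in siTAZ and 8.15 in siYAP), followed by RPS15A (0.34) and RPL19 (0.33). Ribosomal protein genes have many processed pseudogenes, and probes may take signal from more than 1 copy.

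Ribosome assembly factors had 35 higher (49.3%), 11 lower and 25 identical of 71, with BOP1 at 0.31 and RRS1 at 0.26 behind NOC4L. Aminoacyl-tRNA synthetases, which charge tRNAs, had 8 higher (42.1%), 2 lower and 9 identical of 19, with SARS1 at 0.22 and AARS1 at 0.19. Splicing factors had 38 higher (36.5%), 16 lower and 50 identical of 104. Shared values and brightness both move with these counts. Of genes with values of their own, 38.2% of all were higher, against 86.4% of 22 respiratory chain genes, 67.7% of 65 mitochondrial and 79.5% of 39 cytosolic ribosomal proteins, 35 of 66 assembly factors, 44.4% of 18 synthetases and 44.7% of 85 splicing factors. In the brightest 25% of genes 40.6% of all were higher and 32.7% lower. That group held 12 of the 24 respiratory chain genes, 36 of 73 mitochondrial and 22 of 50 cytosolic ribosomal proteins, 44 of 71 assembly factors, 13 of 19 synthetases and 53 of 104 splicing factors. The part of brightness in these counts was not tested.

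**Figure D4:**
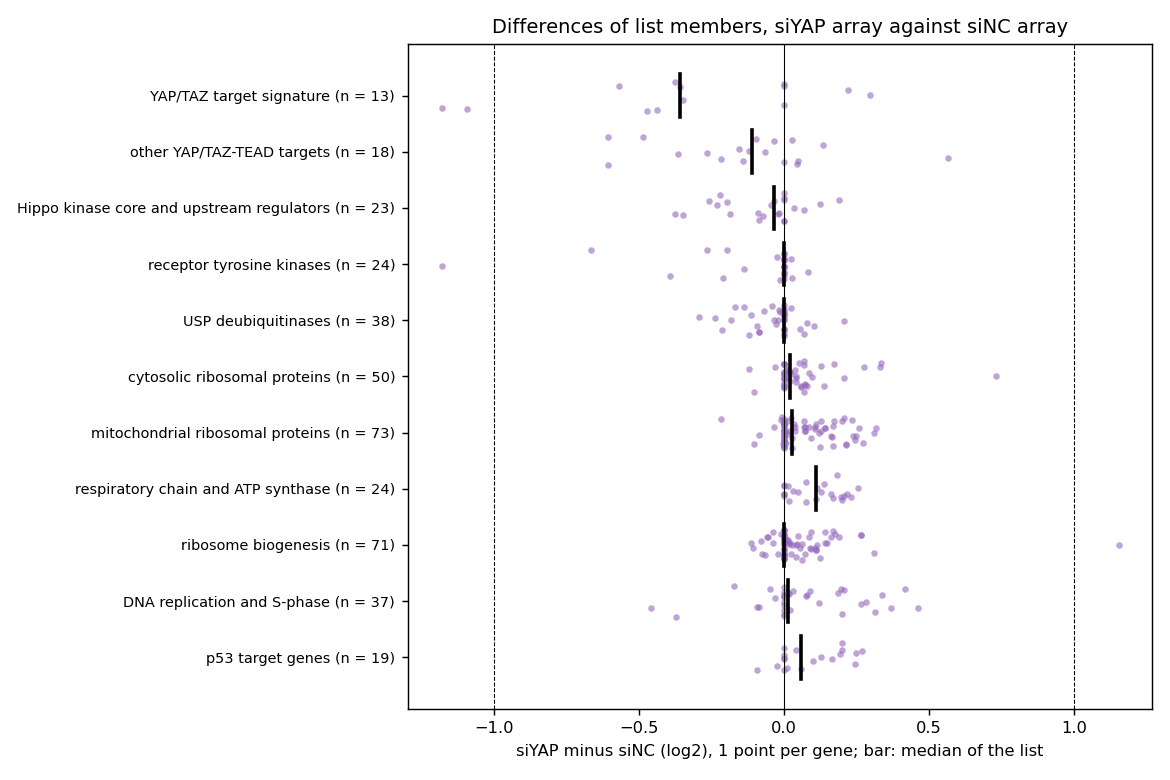
Difference of each kept member (horizontal, siYAP minus siNC, log2) in 11 lists, 1 point a gene, with a bar at the list's median. Dashed lines mark 2-fold. The target signature is spread below 0 with AXL and CCN2 beyond the 2-fold line, whereas the respiratory chain lies between 0 and 0.26.

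Proliferation genes were mixed in sign. DNA replication and S-phase genes had 20 higher (54.1%, against 27.0% of all kept genes), 7 lower and 10 identical of 37, with a median of 0.012. TYMS, the thymidylate synthase (8.87 in siNC and 9.33 in siYAP), E2F1 (6.61 and 7.02) and PCNA, the sliding clamp of DNA polymerases (10.53 and 10.89), were highest. CCNE2 (6.44 and 5.98) and CDC25A (6.70 and 6.32), which drive entry into S phase, were lowest. Mitosis genes had 21 higher (36.8%), 14 lower (24.6%) and 22 identical of 57, from KNL1 (-0.22) and MKI67 (-0.18) to PLK1 (0.46). Among cell cycle regulators CDK6 and CDK4, a pair of kinases with overlapping function, differed in opposite directions: CDK6 was 8.02 in siNC and 7.53 in siYAP, and CDK4 8.59 and 8.96. Targets of p53 had 12 higher (63.2%), 3 lower and 4 identical of 19, with a median of 0.058, led by the death effectors BAX (0.27) and BBC3 (0.24). APAF1, which forms the apoptosome, was lower (7.63 and 7.14). Among genes with values of their own, 38.2% of all were higher. The share was 58.8% of 34 S-phase genes, 39.6% of 53 mitosis genes and 70.6% of 17 p53 targets. The brightest 25% of genes, where 40.6% of all were higher, held 21 of 37, 37 of 57 and 9 of 19 of these lists. The part of brightness was not tested.

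Further lists had members on both sides, to be read beside 21.7% lower and 27.0% higher over all kept genes. Notch genes had 4 lower, 6 higher and 14 identical of 24, though the ligand gene JAG1 was bright and lower (10.45 and 9.96). The phosphatases and Sprouty proteins that restrain ERK signalling had 4 lower (17.4%), 8 higher (34.8%) and 11 identical of 23, with DUSP6 at -0.27. Zinc finger genes of the ZNF group had 60 lower (16.8%), 98 higher (27.4%) and 200 identical of 358, none of them past 1.5-fold. Cholesterol synthesis had 6 lower (30.0%), 9 higher (45.0%) and 5 identical of 20, from HMGCS1 (-0.33) to DHCR7 (0.32). The type I interferon list, relevant to any siRNA transfection, had 4 lower (14.8%), 10 higher (37.0%) and 13 identical of 27, with the RNA sensor IFIH1 at 4.88 in siNC, 5.56 in siTAZ and 5.50 in siYAP. Only 20 solute carriers, 1 RAB gene, 1 proteasome-type gene and 0 ABC transporters had a named probe set, so these families are not described.

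Non-coding genes contributed 2 of the 21 genes past 2-fold. LINC01433, a long intergenic RNA, read 6.82 in siNC, 7.64 in siTAZ and 8.05 in siYAP, 2.34-fold higher. It was the only one of 155 kept long intergenic RNAs past 1.5-fold, and 98 of them were identical. MicroRNA genes had 118 lower (32.2%, against 21.7% of all kept genes), 64 higher (17.4%, against 27.0%) and 185 identical of 367. By 1.5-fold or more, 5 of the 367 were lower and 4 higher, against 41 and 56 of all 10768 kept genes. Among genes with values of their own, 46.3% of 255 were lower, against 30.6% of all. Only 18 of the 367 were in the brightest 25% of genes, and the part of brightness was not tested. The list was drawn by symbol, and 10 of the 367 are long non-coding host genes and 357 microRNA genes proper. Of the 4 higher, MIR3127, MIR4470 and MIR521-1 had a control level under the filter. Probe sets of a whole-transcript array may read the host transcript or precursor, and the mature microRNA was not measured. MIR4454 read 6.47 in siNC and 5.47 in both knockdown arrays. MIR3127 read 3.79 in siNC, 4.36 in siTAZ and 4.67 in siYAP, and its control level makes the fold uncertain. Their mature sequences in RefSeq are shown with the seed (bases 2 to 8) in capitals because they mark the 2 ends of the microRNA list.
hsa-miR-4454: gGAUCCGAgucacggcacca
hsa-miR-3127-5p: aUCAGGGCuuguggaaugggaag
hsa-miR-3127-3p: uCCCCUUCugcaggccugcugg
For 8 of the 9 microRNA genes past 1.5-fold a mature sequence was matched, and their 11 seeds were all different. The genes below the filter that differed by 2-fold were the pseudogene BCRP3 (-1.65), MIR4253 (-1.11) and MIR4693 (-1.11), all lower and too dim for a reliable fold.

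A further view on the single values came from genes with several probe sets, which 8 of the 97 genes past 1.5-fold had. TRIM31 was read by 5 probe sets, which gave 0.94 to 1.02, and F8A1, a gene with near-identical copies, by 6, which gave 0.84 to 0.92. YAP1 had a second, dimmer probe set that read 4.95 in siNC and 4.38 in siYAP. CCN2's second probe set was very dim, at 1.87, and identical. TRANK1 ranged from 0.14 to 1.18 over 5 probe sets, and KLC2 had 0.68 and -0.15, so these genes depend on the probe set read. With all probe sets averaged, CCN2 was at -0.55, TRANK1 at 0.58 and KLC2 at 0.26, and YAP1 at -1.08. Probe sets of MIR4454 (3) and of MIR4640 (5) gave identical values and are not separate readings.

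Markers of an epithelial line read at mixed levels. In siNC the epithelial gene KRT18 read 11.56, EPCAM 8.23 and the fibrinogen gene FGB, which A549 is known to express, 11.35, and in siYAP they read 11.56, 8.19 and 11.35. Other epithelial genes were dim in siNC, with GRHL2 at 4.43, CLDN4 at 4.67 and ESRP1 under the filter at 3.80. The mean over 15 named epithelial and A549 genes was 6.79 in siNC and 6.78 in siYAP. Over 13 mesenchymal genes it was 6.42 and 6.30, with AXL at 9.24 and VIM at 6.84 in siNC. The alveolar genes NKX2-1 and SFTPC were near the filter at 4.61 and 5.04 in siNC. SOX9 and FOXA2, of the same lung list, read 9.17 and 7.74 in siNC. The mean level of markers of other cell types was close in siNC and siYAP, at 5.03 and 5.07 over 10 named leukocyte genes, 4.17 and 4.20 over 10 endothelial genes and 5.17 and 5.29 over 5 fibroblast genes. Defining genes such as CSF1R, CD4 and VWF had identical values of 4.42, 4.78 and 4.42, which are no measure of a stable transcript. CSF1R and VWF had the same values on all 3 arrays, so these values are not particular to a gene. CD68, a lysosomal protein and macrophage marker (8.43 in siNC, 9.00 in siTAZ and 9.02 in siYAP), and the matrix proteoglycan gene LUM (7.45, 8.14 and 8.10) were 1.5-fold and 1.58-fold higher. Fewer cells with a transcript and less of it per cell cannot be told apart in bulk RNA.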

How the data were processed

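Total RNA of A549 cells was extracted with TRIzol and 500 ng was labelled for 1-colour Affymetrix whole-transcript arrays, per the labels' protocols. The authors summarised the arrays with RMA, per the submitters' processing notes. No source names the scale; the deposited values ran from 0.96 to 13.54 and were taken as log2 levels. The sources used here do not give the version of RMA, the array annotation or the build. RMA makes the distributions of the arrays alike (medians 4.28, 4.26 and 4.27 for siNC, siTAZ and siYAP), so a level is relative to the rest of its array.

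From these values, differences of log2 levels between single arrays were computed in Python 3.11.15 with pandas 2.3.3. All 16098 named probe sets matched a RefSeq gene by Entrez identifier, with 0 symbols changed, and 37519 unnamed probe sets were set aside. The brightest probe set over the 3 arrays stood for a gene, and genes with a mean under 4.27 were left out. With 1 array a group no test was run. The arrays' number limits the precision, and no error can be given.

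Genes were named by rule: those past 2-fold, the 15 most extreme each way, the 5 nearest each threshold on either side, up to 5 members at each end of a list and those past 1.5-fold, the siRNA targets, TEAD genes and known targets, and up to 10 dim genes past 2-fold. Genes with several probe sets and marker genes outside this rule were named after their values were seen. The comparison, its markers and the 80 lists were chosen with earlier results of these data known, and 1 list is not reported here. The code that finds genes past 2-fold was checked on simulated data. Alternatives were no filter, a filter at percentile 75, a new quantile normalization, a loess trend (span 0.4), the mean of all probe sets and a reference of siNC with siTAZ. Leaving out genes that share all 3 values with another gene was added after seeing the data.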

Additional observations from a re-analysis of the deposited data

Results flagged for a closer look

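Probe sets that the annotation leaves without a gene symbol also differed between the siYAP and siNC arrays. Of the 15272 unnamed probe sets at or above the filter, 58 (0.380%) lay 2-fold or more below siNC in the siYAP array and 69 (0.452%) lay 2-fold or more above it. The largest differences were -2.06, or 4.18-fold lower, and 2.44, or 5.42-fold higher. They are given because they lie in data that the gene comparison does not use. With 1 array a side no spread between samples is known for them.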

How the results depend on the processing

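The counts at both thresholds stayed within 1.5 times their value without the filter, with the stricter filter, after a new quantile normalization or a loess trend, with the mean of all probe sets and without genes of shared values. Of the 21 genes past 2-fold, all 21 were past it without the filter, after either normalization and without genes of shared values. The stricter filter left 18 of them, all past 2-fold, and with the mean of all probe sets 19 were. The exception was the reference. With the mean of siNC and siTAZ in place of siNC, the 2-fold counts were 1 lower and 0 higher, and the 1.5-fold counts 12 lower and 19 higher. The median of the target signature was then -0.043, and the difference of TFPI2 was reversed, at 0.022. A knockdown array in the reference removes part of any change the knockdowns share, by construction. The other 513 values of list medians moved by less than 0.144, the SD of the difference over genes. With 51.3% of kept genes identical, most list medians were 0 and could hardly move so far. That count therefore says little about how stable the lists are. Of the values for single genes, 613 stayed within that distance, and of the 92 that moved without a change of sign 88 came with the changed reference and 4 with the mean of all probe sets. Leaving out an array was not run, since it would empty a group. No paired analysis was possible because each group had 1 array. Dim levels limit CXCL8, MIR3127, MIR4470, MIR521-1, GRHL3, HMGN5 and C15orf61, which had an array under the filter among the 2 compared, the siTAZ value of ANKRD1, and KRTAP10-5, at the filter: signal over background is low there.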

Other observations

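Genes that belong to none of the lists described were past 1.5-fold too. FMNL1, a formin that builds actin filaments, was 6.39 in siNC, 7.08 in siTAZ and 7.16 in siYAP, and MPRIP, which ties myosin phosphatase to actin, was 7.18, 7.76 and 7.93. NPTN, an adhesion protein of the immunoglobulin superfamily, was 9.06, 9.99 and 9.72, and IGFBP4, which binds insulin-like growth factors, was 9.64, 10.31 and 10.29. In each of these genes both knockdown arrays lay above siNC. At the low end DST, a linker of the cytoskeleton, was 8.23, 7.73 and 7.55, and HEG1, a receptor of the cerebral cavernous malformation pathway, was 7.25, 6.52 and 6.49.

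The xylosyltransferases GXYLT1 and GXYLT2, which act on the same sugar chain of Notch receptors, stood at opposite ends of the glycosyltransferase list. GXYLT1 was 8.33 in siNC, 7.86 in siTAZ and 7.50 in siYAP, and GXYLT2 was 5.37, 6.38 and 6.10. They were the only members of that list of 22 kept genes past 1.5-fold. They were singled out after their values were seen.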
